A study of Mus musculus with 28 samples.

Results

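Resident Kupffer cell markers are genes by which the fixed macrophages of the liver are recognised. The 10 genes described here, Clec4f, Timd4, Marco, Cd5l, Vsig4, C6, Clec1b, Cd163, Adgre1 and Csf1r, were taken by symbol from tables of 20416 genes, and all 10 were present and passed the filter on low values in every table. Messenger RNA had been sequenced in 28 liver samples of male C57BL/6 mice in 2 models of steatohepatitis, an inflamed fatty liver. The first model compared 4 livers of a methionine- and choline-deficient diet (MCD) with 4 of a matched low-fat control diet (CD). Sample titles give 4 weeks for this diet, and another label gives a duration of 5 weeks. The second, STAM, combined streptozotocin, a toxin of pancreatic beta cells, on postnatal day 2 with a high-fat diet (HFD) from week 4. It compared 5 STAM with 5 control livers on a control diet (Ctrl) at 4 weeks of age, and 5 with 5 at 10 weeks. Week 4 is both the stated start of that diet and the age of the younger STAM livers, whose label names HFD. Nothing in the labels says that each replicate was a separate mouse, so p-values measure only how far these samples scattered, and that scatter may be technical.

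Kupffer cells line the liver sinusoids, where they take up bacteria, dying cells and aged red cells from portal blood. They are seeded before birth and renew themselves, and when they are lost, monocytes from the blood can fill the niche and acquire most of the same genes, Timd4 among the last. Their identity depends on the growth factor receptor Csf1r and on transcription factors such as the liver X receptor alpha, encoded by Nr1h3. In whole liver tissue, fewer cells of a type and less RNA per cell cannot be told apart, and that holds for each value below.

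Libraries held 16.2 to 25.9 M recovered reads, and the lowest read number of any of the 10 genes in any library was 23, for Marco. Levels are in log2 CPM, a gene's reads relative to the library total as scaled by the authors within each table, so a difference of 1 is a doubling. "Called" means an adjusted p under 0.05 in limma, with Benjamini-Hochberg adjustment over all genes tested. Scaling matters for the direction of small differences. Relative to total reads, the authors' scale factors were 0.832 to 0.899 in CD and 1.11 to 1.23 in MCD livers. With the deposited scaling, 52.9%, 66.6% and 53.0% of the called genes were higher in MCD, in STAM at 4 weeks and in STAM at 10 weeks. With scaling by total reads, these shares were 86.1%, 83.7% and 88.0%, and the median difference over all genes was higher by 0.42, 0.08 and 0.29. As a check of the tissue, 8 hepatocyte genes summed to between 50568 and 165274 CPM in the 28 libraries.

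The promoters of these genes are shown first, as a description of sequence. Several of the genes moved together from library to library and C6 and Clec1b did not, and a link of this to promoter sequence was not tested. RefSeq entries for build GRCm38.p6, spanning 250 bases before to 50 bases after each gene's start, matched 8 of the 10 genes, without Adgre1 and Csf1r. Printed are the 250 bases before the start for Clec4f and Vsig4, each of which had the other as its nearest gene across libraries, for Cd5l, which was called in every model, for Marco, which had the largest difference in any single comparison, and for C6, which had none of the other markers near it. For Marco the RefSeq start lies inside the transcript model of the deposited tables, so the last 60 bases before it were left out and 190 are printed. They lie at chr6:83656117-83656366 (minus strand), chrX:96293439-96293688 (minus), chr3:87357631-87357880 (plus), chr1:120505085-120505274 (minus) and chr15:4726960-4727209 (plus), each written 5′ to 3′ along its gene. Capitals mark matches, on either strand, to 5 short motifs: GAGGAA of the macrophage factor PU.1, TGCTGA of a MAF element, AGGTCA of a nuclear receptor element, TGANTCA of AP-1 and GAAANNGAA of an interferon response element.
Clec4f: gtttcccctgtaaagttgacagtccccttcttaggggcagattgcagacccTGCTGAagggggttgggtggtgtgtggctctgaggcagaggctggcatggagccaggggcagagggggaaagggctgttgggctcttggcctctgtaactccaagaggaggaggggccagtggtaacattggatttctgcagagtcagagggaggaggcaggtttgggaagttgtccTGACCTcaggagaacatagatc
Vsig4: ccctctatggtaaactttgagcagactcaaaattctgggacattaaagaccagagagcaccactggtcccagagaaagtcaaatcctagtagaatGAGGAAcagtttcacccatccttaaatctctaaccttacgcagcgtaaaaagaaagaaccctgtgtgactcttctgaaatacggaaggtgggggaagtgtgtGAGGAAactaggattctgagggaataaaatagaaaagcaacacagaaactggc
Cd5l: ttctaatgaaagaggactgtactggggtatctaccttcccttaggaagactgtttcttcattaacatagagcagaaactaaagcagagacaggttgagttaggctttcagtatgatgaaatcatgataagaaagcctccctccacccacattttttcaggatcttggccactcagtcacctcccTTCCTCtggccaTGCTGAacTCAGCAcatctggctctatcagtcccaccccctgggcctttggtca
Marco: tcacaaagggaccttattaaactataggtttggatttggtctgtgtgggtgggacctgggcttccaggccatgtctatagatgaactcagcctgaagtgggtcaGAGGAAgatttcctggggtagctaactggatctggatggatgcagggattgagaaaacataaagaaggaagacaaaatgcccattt
C6: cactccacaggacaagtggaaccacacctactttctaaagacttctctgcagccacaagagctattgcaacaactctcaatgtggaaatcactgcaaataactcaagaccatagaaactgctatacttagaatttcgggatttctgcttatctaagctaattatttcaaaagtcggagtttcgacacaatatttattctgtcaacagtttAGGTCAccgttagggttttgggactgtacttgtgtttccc

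Counting the start as 0, Clec4f held a MAF element at -199 to -194 and a nuclear receptor element at -22 to -17. Vsig4 held the PU.1 letters at -155 to -150 and at -53 to -48, with a MAF element at 23 to 28, outside the stretch printed, and Cd5l held them at -66 to -61, followed by MAF elements at -54 to -49 and -46 to -41. Marco had a single PU.1 match at -146 to -141, and C6 a single nuclear receptor element at -40 to -35. Timd4 carried MAF elements at -150 to -145 and -44 to -39, a nuclear receptor element at -116 to -111 and the interferon letters at -77 to -69. No motif matched in the windows of Cd163 and Clec1b. Of the 8 windows, 3 held GAGGAA, 4 TGCTGA, 3 AGGTCA, 0 TGANTCA and 1 GAAANNGAA. Among 32851 promoters of the same length, 28.3%, 19.5%, 16.3%, 7.81% and 8.56% held these motifs. The 14 matches in the 8 windows did not overlap each other. A match is a description of the letters and no evidence of binding.

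Per length, the 10 genes spanned a wide range in control livers. Clec4f (chr6:83644542-83656116 on mm10), a C-type lectin restricted to Kupffer cells in mice, averaged 54.5 ± 7.27 RPKM, or CPM per kilobase of counted length (SD, n = 5), in controls of 10 weeks. Cd5l (chr3:87357881-87371074), a secreted protein of tissue macrophages, averaged 70.7 ± 11.9 RPKM there, and its range overlapped that of Clec4f. C6 (chr15:4727210-4804045), a component of the complement membrane attack complex, averaged 100 ± 47.1 RPKM with a range of 41.7 to 173 that covered both. Vsig4 (chrX:96247203-96293438), a macrophage receptor for complement C3 fragments, followed at 25.3 ± 4.15 RPKM, and its range met neither Clec4f above nor Csf1r below. Csf1r (chr18:61105572-61131139), the receptor of the macrophage growth factors Csf1 and Il34, stood at 15.2 ± 2.55 RPKM. Clec1b (chr6:129397297-129405413), a lectin-like receptor for podoplanin that platelets also carry, stood at 11.1 ± 1.32 RPKM, overlapping Csf1r. The lowest 4 were Cd163 (chr6:124304651-124330527), the scavenger receptor for haptoglobin-haemoglobin complexes, Adgre1 (chr17:57358686-57483529), the adhesion receptor behind a common macrophage stain, Timd4 (chr11:46810799-46844333), a phosphatidylserine receptor for dying cells, and Marco (chr1:120474538-120505084), a scavenger receptor for bacteria. They averaged 8.57, 7.28, 5.01 and 3.89 RPKM, with overlapping ranges between neighbours. Each position is that of the whole transcript model in the deposited tables, exons and introns together.

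The order at the top depended on C6. In CD livers C6 led with 167 ± 61.5 RPKM (n = 4), ahead of Cd5l at 67.9 ± 16.4 and Clec4f at 60.9 ± 10.4, whereas in controls of 4 weeks it was 9th of 10 at 5.33 ± 1.20 RPKM. Since the tables were scaled apart, these levels are set side by side with no test. Marco was 10th in CD livers at 1.75 ± 1.15 RPKM and 4th in MCD livers at 25.04 ± 31.9, and without MCD replicate 4 it was 8th there at 9.10 ± 0.576 (n = 3).

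**Figure D1:**
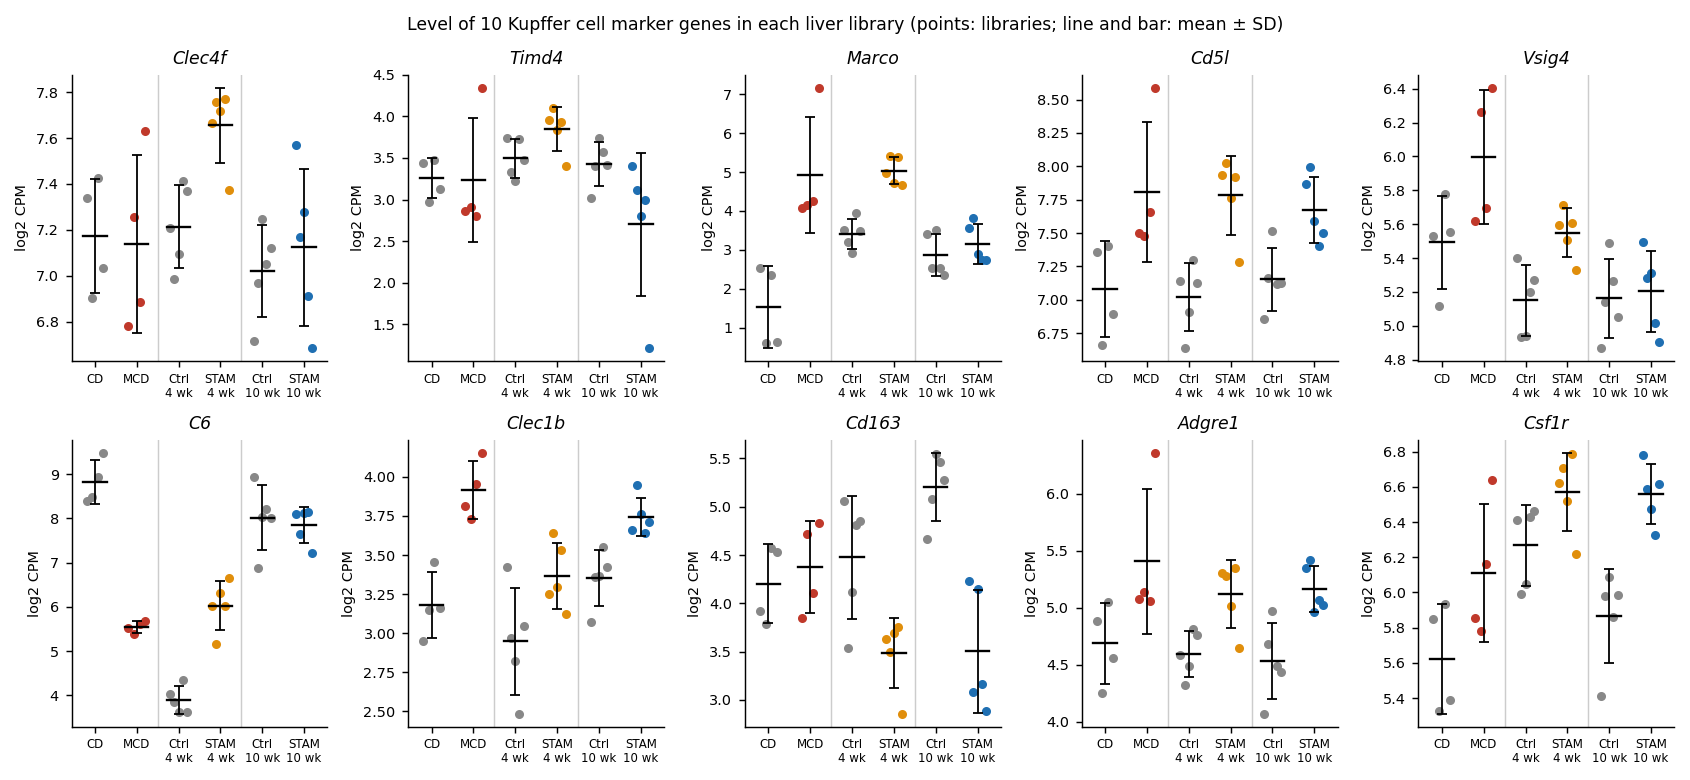
Log2 CPM of the 10 genes (vertical axes, 1 panel a gene) in each of 28 libraries, by group; points are libraries and the line with its bar is the mean ± SD. Marco reached 7.18 in MCD replicate 4, C6 was low in MCD and in both groups of 4 weeks, and Cd163 was below every control in all 5 STAM livers of 10 weeks.

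MCD livers did not differ in Clec4f and Timd4 beyond the spread of the samples, had 10.5-fold more Marco and 1.66-fold more Cd5l and Clec1b, and had 9.65-fold less C6. That is 3 of 10 markers called higher, where 22.6% of the 15312 genes tested were, and 1 called lower, where 20.1% were. The median difference of the 10 genes was 0.49, against 0.07 over all genes tested.

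Marco stood at 2.52, 0.59, 2.36 and 0.63 log2 CPM in the 4 CD livers and at 4.09, 4.16, 4.27 and 7.18 in the 4 MCD livers. All 4 MCD livers were above all 4 CD livers, replicate 4 stood far above the other MCD livers, and CD replicates 2 and 4 were far below the other controls. Marco rose by 3.40 (SE 0.86, limma adjusted p = 0.0175). Without MCD replicate 4 the rise was 2.65 (adjusted p = 0.00801), and without CD replicate 4 the adjusted p was 0.0530. With limma voom on recovered reads it was 0.0658.

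Cd5l stood at 7.36, 6.66, 7.40 and 6.89 in CD livers and at 7.50, 7.48, 7.65 and 8.59 in MCD livers. The groups did not overlap, though CD replicates 1 and 3 came close to the lower MCD livers. Cd5l rose by 0.73 (SE 0.26, limma adjusted p = 0.0494), and by 1.15 with total-read scaling. This call was lost in 4 of 8 fits that left out 1 library, with adjusted p values of 0.110 without CD replicate 2, 0.117 without CD replicate 4, 0.0512 without MCD replicate 1 and 0.0742 without MCD replicate 3.

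Clec1b stood at 2.95, 3.15, 3.46 and 3.16 in CD livers and at 3.82, 3.73, 3.96 and 4.15 in MCD livers. Every MCD liver was above every CD liver, and the rise was 0.73 (SE 0.14, limma adjusted p = 0.00131) or 1.16 with total-read scaling. Platelets and megakaryocytes also carry Clec1b. Of 8 genes of theirs, 7 were tested and 2 were called higher, where 22.6% of all genes were. The 2 were Pf4, by 1.12, and Treml1, which had 0 reads in CD livers. With total-read scaling 3 were called higher, and with quantile normalization 1 was called higher and 1 lower. The 8 platelet genes summed to 1.74 to 2.92 CPM in CD and 3.03 to 3.61 CPM in MCD livers, below the 9.12 ± 1.36 and 15.2 ± 1.99 CPM of Clec1b itself (n = 4 each). The part of platelets in the rise of Clec1b was not tested.

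C6 stood at 8.40, 8.48, 8.94 and 9.49 in CD livers and at 5.53, 5.38, 5.62 and 5.69 in MCD livers. No value of one group came near the other, and C6 fell by 3.27 on the log2 scale (SE 0.21, limma adjusted p = 7.36e-07). Other genes of the terminal complement pathway also fell, and the part of hepatocytes in these falls was not tested. Of 7 genes of that pathway and C3, 5 were called lower and 0 higher, with C8b at -3.54, C8a at -3.34 and C9 at -3.25. The list's median was -1.65, against 0.07 for all genes tested.

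Clec4f stood at 7.34, 6.90, 7.43 and 7.03 in CD livers and at 6.78, 7.26, 6.88 and 7.63 in MCD livers. The groups overlapped. The difference was -0.04, with a 95% interval from -0.44 to 0.36 (limma adjusted p = 0.884), and it was 0.39 (adjusted p = 0.132) with total-read scaling and 0.24 (adjusted p = 0.378) with quantile normalization.

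Timd4 stood at 3.44, 2.98, 3.47 and 3.13 in CD livers and at 2.86, 2.91, 2.81 and 4.35 in MCD livers. MCD replicates 1 to 3 were below every CD liver, and replicate 4 was above every one. The difference was -0.02 (95% interval -0.72 to 0.67, limma adjusted p = 0.957), and without replicate 4 it was -0.40 (adjusted p = 0.0673). Total-read scaling gave 0.40 (adjusted p = 0.328).

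Vsig4, Adgre1 and Csf1r were above CD by 0.50, 0.72 and 0.49 and missed the threshold, with limma adjusted p values of 0.0532, 0.0852 and 0.0689. All 3 were called with total-read scaling, at 0.93, 1.14 and 0.91, and the authors' deposited table gives each of them an adjusted p under 0.05, at 0.0235, 0.0101 and 0.0378. Cd163 differed by 0.17 (95% interval -0.37 to 0.72, adjusted p = 0.602). A ratio to Clec4f within each library does not depend on the scaling. The log2 ratio of Vsig4 to Clec4f was -1.81 to -1.48 in CD and -1.23 to -0.99 in MCD livers, and that of Adgre1 was -2.64 to -2.37 and -2.12 to -1.27. Both ratios were higher in every MCD liver, as were those of Marco, Cd5l, Clec1b and Csf1r, while the ratios of Timd4 and Cd163 overlapped between the groups.

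MCD replicate 4 had the highest level of all 10 genes among the MCD livers. Markers of other cells in this liver were not uniformly high. Its 14 genes listed as general macrophage markers summed to 983 CPM, against 591 to 895 in the other MCD livers. Its 15 other Kupffer core genes summed to 884 CPM, against 760 to 843, and its 8 neutrophil genes to 10.7, against 6.76 to 8.45. Its 12 genes of recruited monocytes and lipid-associated macrophages summed to 424 CPM, within the 406 to 558 CPM of the group. Its 8 stellate cell genes were the lowest of the group, at 630 CPM against 724 to 774. Its 4 measured B cell genes summed to 6.82 CPM, against 2.48 to 3.18 in the other MCD livers, and its 8 hepatocyte genes to 79835 CPM, against 98569 to 106282. Their part in its marker levels was not tested. Leaving it out, 3 markers were still called higher and 1 lower.

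**Figure D2:**
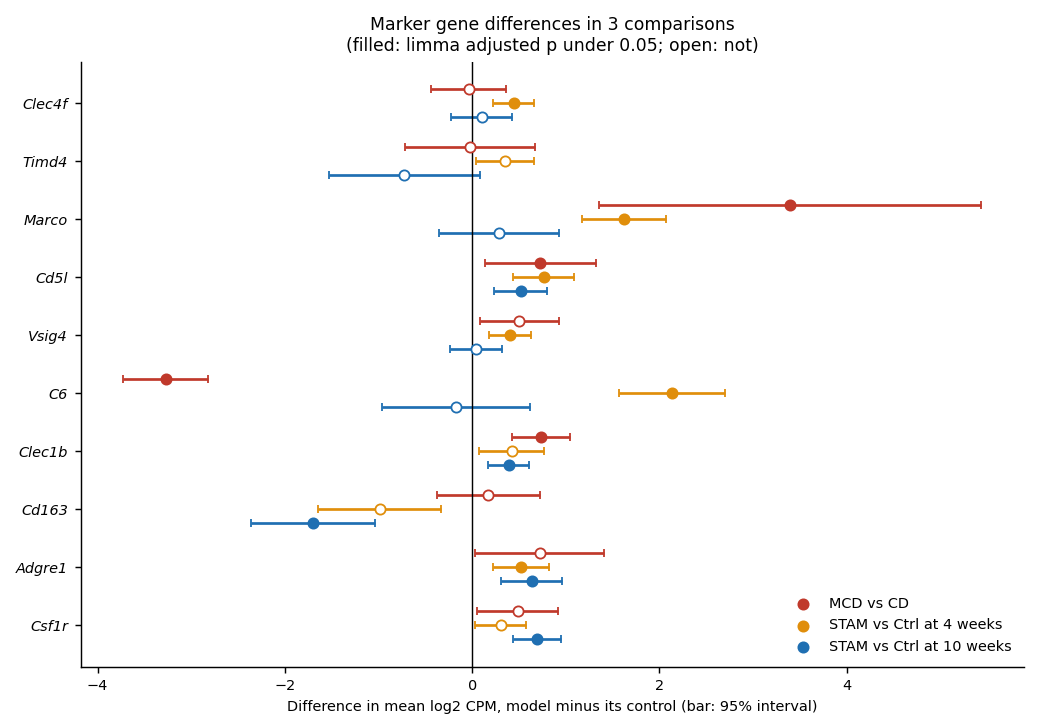
Difference in mean log2 CPM between each model and its control (horizontal axis) for the 10 genes, with the 95% interval as a bar, in MCD (red), STAM at 4 weeks (orange) and STAM at 10 weeks (blue). Filled points passed an adjusted p of 0.05; Cd5l is filled in all 3 comparisons, Cd163 lies at -1.70 at 10 weeks, and C6 lies at -3.27 in MCD and 2.13 at 4 weeks.

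STAM livers of 4 weeks had more of most of these genes. C6 was 4.39-fold, Marco 3.08-fold and Cd5l 1.70-fold higher, and Adgre1, Clec4f and Vsig4 were 1.44-, 1.36- and 1.32-fold higher. That is 6 of 10 markers called higher, where 6.52% of 15312 genes were, and 0 called lower, where 3.27% were. All 10 had an unadjusted p under 0.05, and 9 of the 10 differences were positive. The shares of all genes with such a p or sign were not counted. Most of the 10 genes varied together from library to library, so these are not 10 separate results. The median difference of the 10 was 0.43, against 0.01 over all genes tested.

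Marco stood at 3.51, 3.20, 2.91, 3.96 and 3.50 log2 CPM in the 5 controls and at 4.98, 5.43, 4.72, 5.38 and 4.68 in the 5 STAM livers. Every STAM liver was above every control, and Marco rose by 1.62 (SE 0.21, limma adjusted p = 0.000611). C6 stood at 4.03, 3.85, 3.62, 4.36 and 3.63 in controls and at 6.01, 5.16, 6.31, 6.01 and 6.65 in STAM livers. It too did not overlap, and rose by 2.13 (SE 0.26, adjusted p = 0.000752). Of the other terminal complement genes, C9 rose by 1.26 and none of the other 6 was called.

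Cd5l stood at 7.14, 6.64, 6.91, 7.30 and 7.12 in controls and at 7.94, 8.02, 7.76, 7.92 and 7.28 in STAM livers. STAM replicate 5 lay within the control range and the other 4 above it, and the rise was 0.76 (SE 0.15, limma adjusted p = 0.00819). Clec4f stood at 7.21, 6.99, 7.09, 7.41 and 7.37 in controls and at 7.66, 7.75, 7.72, 7.77 and 7.37 in STAM livers. Again only replicate 5 was in the control range, and the rise was 0.44 (SE 0.10, adjusted p = 0.0149). The same replicate was the lowest of the 5 STAM livers in 9 of the 10 genes, and the highest in the other, C6. Its 8 stellate cell genes summed to 409 CPM, against 436 to 519 in the other 4. Its 14 genes listed as general macrophage markers summed to 476 CPM, against 489 to 589. Its summed level of the recruited macrophage genes was 214 CPM within a group range of 162 to 238, and the part of other cells was not tested.

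Vsig4 rose by 0.40 (SE 0.10, limma adjusted p = 0.0286) and Adgre1 by 0.53 (SE 0.14, adjusted p = 0.0317). Vsig4 stood at 4.93 to 5.40 in controls and 5.33 to 5.71 in STAM livers, and Adgre1 at 4.32 to 4.82 and 4.65 to 5.35, so both groups overlapped slightly. Leaving out 1 library ended the call in 6 of 10 fits for Vsig4, with adjusted p up to 0.0706, and in 5 of 10 for Adgre1, up to 0.0839. Among these are the fits without Ctrl replicates 2 or 3 and without STAM replicates 1, 2 or 4, for both genes, and without STAM replicate 3 for Vsig4. Timd4, Clec1b and Csf1r differed by 0.35, 0.42 and 0.30, with adjusted p values of 0.154, 0.130 and 0.154. Timd4 was called without STAM replicate 5 (0.46, adjusted p = 0.0490), and Clec1b without Ctrl replicate 1 (0.54, adjusted p = 0.0271).

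Cd163 was the exception in direction. It stood at 5.06, 3.54, 4.12, 4.81 and 4.85 in controls and at 3.63, 3.49, 3.69, 3.75 and 2.86 in STAM livers. Control replicate 2 fell among the STAM livers and the other 4 controls were above all of them. The difference was -0.99 (SE 0.29, limma adjusted p = 0.0631), and without control replicate 2 it was -1.22 (adjusted p = 0.00888). The authors' deposited table lists it at -1.06 with an adjusted p of 0.000389. Relative to Clec4f in the same library, the log2 ratio of Cd163 was -3.45 to -2.14 in controls and -4.51 to -4.02 in STAM livers, with no overlap.

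STAM livers of 10 weeks had less Cd163 and more of the general macrophage receptors. Cd163 was 3.26-fold lower, and Csf1r, Adgre1, Cd5l and Clec1b were 1.61-, 1.55-, 1.43- and 1.31-fold higher. These 4 of 10 called higher compare with 25.3% of 15312 genes, and the 1 called lower with 22.5%. Clec4f, Vsig4, Marco and C6, with differences of 0.10, 0.04, 0.28 and -0.17, were not called, nor was Timd4 at -0.73. The sign of C6 changed with scaling, to 0.12 with total reads and 0.07 with quantile normalization. The median difference of the 10 was 0.19, against 0.05 over all genes tested.

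Cd163 stood at 4.67, 5.08, 5.54, 5.46 and 5.28 log2 CPM in controls and at 4.23, 3.08, 4.14, 3.16 and 2.89 in STAM livers. Every STAM liver was below every control, with replicates 1 and 3 nearest to them. Cd163 fell by 1.70 (SE 0.30, limma adjusted p = 0.00114), and the call held in all 10 fits that left out 1 library, with falls between 1.55 and 1.89. Haptoglobin, whose complex with haemoglobin is the cargo of Cd163, differed by -0.74 (Hp, adjusted p = 0.0517).

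Timd4 stood at 3.02, 3.40, 3.74, 3.57 and 3.42 in controls and at 3.40, 3.11, 2.80, 2.996 and 1.21 in STAM livers. Replicate 5 was far below the rest, replicates 1 and 2 lay within the control range, and replicates 3 and 4 just below it. The difference was -0.73 (95% interval -1.53 to 0.08, limma adjusted p = 0.124), and without replicate 5 it was -0.35 (adjusted p = 0.0753). Relative to Clec4f in the same library, the log2 ratio of Timd4 was -3.70 to -3.48 in controls and -5.47 to -3.92 in STAM livers, with no overlap. In that replicate 5, the 12 recruited macrophage genes summed to 531 CPM, against 174 to 289 in the other 4 STAM livers, and the 8 stellate cell genes to 701 CPM, against 489 to 578. Their part in its Timd4 level was not tested.

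Csf1r stood at 5.41, 5.98, 6.09, 5.86 and 5.99 in controls and at 6.78, 6.59, 6.47, 6.33 and 6.62 in STAM livers. The groups did not overlap, and the rise was 0.69 (SE 0.12, limma adjusted p = 0.000501). Adgre1 ranged from 4.07 to 4.98 in controls and from 4.97 to 5.42 in STAM livers, and rose by 0.63 (SE 0.15, adjusted p = 0.00385). Cd5l ranged from 6.85 to 7.51 and from 7.40 to 7.99, and rose by 0.52 (SE 0.13, adjusted p = 0.0056). Clec1b ranged from 3.07 to 3.55 and from 3.64 to 3.95, with no overlap, and rose by 0.39 (SE 0.10, adjusted p = 0.00647). Beside Clec1b, 3 of 8 platelet genes were called higher, where 25.3% of all genes were. Their number was 4 with total-read scaling and 0 of 7 tested with quantile normalization, under which Clec1b was still called. The 8 summed to 2.87 to 4.21 CPM in controls and 4.48 to 5.26 CPM in STAM livers, against 10.3 ± 1.21 and 13.4 ± 1.19 CPM for Clec1b (n = 5 each). Their part in its rise was not tested.

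Clec4f ranged from 6.71 to 7.25 in controls and from 6.68 to 7.57 in STAM livers, and Vsig4 from 4.87 to 5.49 and from 4.90 to 5.50. Both differences, 0.10 (95% interval -0.22 to 0.43) and 0.04 (-0.24 to 0.31), were within the spread, and with total-read scaling they were 0.39 and 0.33 and were called (limma adjusted p = 0.0287 and 0.0339). Control replicate 1 had the lowest level of 8 of the 10 genes in its group and the highest of C6, 8.94 against 6.89 to 8.21 in the other 4. In the same library, 7 genes of haemoglobin and haem handling summed to 22288 CPM, against 8984 to 12505 in the other controls, and the 7 complement genes to 17677 CPM, against 10969 to 13732. The part of either in its marker levels was not tested.

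**Figure D3:**
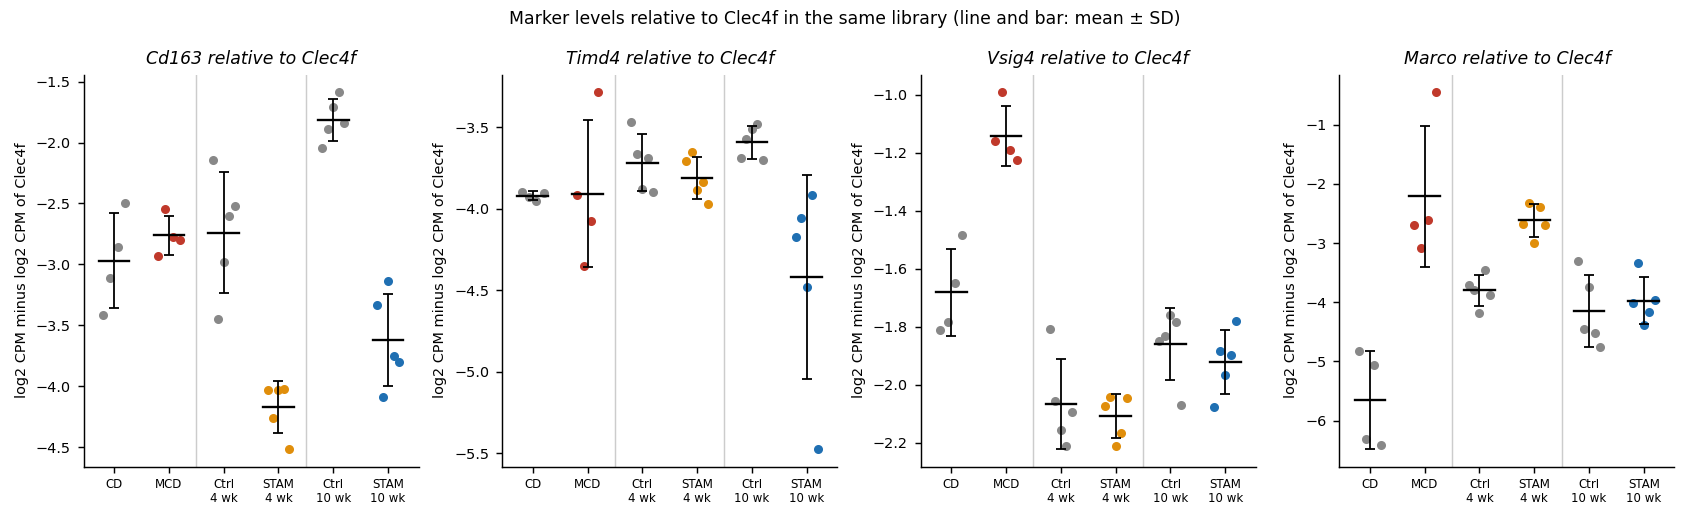
Log2 ratio of Cd163, Timd4, Vsig4 and Marco to Clec4f within each library (vertical axes), by group; points are libraries and the line with its bar is the mean ± SD. The ratio of Cd163 was -2.05 to -1.59 in controls of 10 weeks and -4.09 to -3.14 in STAM livers of that age, whereas the ratio of Vsig4 separated only the diet groups, CD from MCD.

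The STAM effect was then compared between the ages, as the difference at 10 weeks minus that at 4 weeks, in 15022 genes tested in both tables. Of the 10 markers, 0 were called higher, where 8.89% of the genes were, and 2 were called lower, where 11.2% were. The effect on C6 was lower at 10 weeks by 2.30 (SE 0.45, limma adjusted p = 0.00224), and the effect on Marco by 1.34 (SE 0.38, adjusted p = 0.0193). In C6 the level in controls differed between the ages, at 15.2 ± 3.40 CPM at 4 weeks and 285 ± 134 CPM at 10 weeks (n = 5 each), and in STAM livers it was 68.9 ± 23.7 and 237 ± 60.2 CPM. In Marco the controls were closer, at 10.97 ± 3.02 and 7.73 ± 3.02 CPM, and the STAM livers were at 33.6 ± 8.28 and 9.35 ± 3.46 CPM. Timd4 differed between the ages by -1.08 (adjusted p = 0.0684), and was called without STAM replicate 1 of 10 weeks (adjusted p = 0.0322) or without replicate 5 (-0.70, adjusted p = 0.0315). For Cd163 the difference between the ages was -0.72, with a 95% interval from -1.64 to 0.21 (adjusted p = 0.268).

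The effect of MCD was likewise set against that of STAM at 10 weeks, in 14986 genes. Of the 10 markers, 2 were called higher, where 12.9% of the genes were, and 1 lower, where 15% were. The effect on Marco was higher in MCD by 3.11 (SE 0.87, limma adjusted p = 0.0146), and that on Cd163 by 1.88 (SE 0.43, adjusted p = 0.00378). The effect on C6 was lower in MCD, with a difference of -3.10 (SE 0.46, adjusted p = 0.000156). For Marco the adjusted p was 0.0780 with limma voom. The differences in the effects on Clec4f, Cd5l, Adgre1 and Csf1r were between -0.21 and 0.21 and were not called.

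Across the 28 libraries, after subtraction of each group's mean, most of the markers varied together. The measure is Pearson's r of these deviations with each of 14847 genes that passed the filter in all 3 tables, a description without a test, in which genes share the libraries and their scaling. Single libraries weigh heavily on r. MCD replicate 4 deviated by 2.25 in Marco, 1.12 in Timd4, 0.95 in Adgre1 and 0.78 in Cd5l, and STAM replicate 5 of 10 weeks by -1.49 in Timd4. The r values were not computed without these libraries. The gene nearest to Clec4f was Vsig4 (r = 0.89), followed by the ficolin Fcna (0.86) and the folate receptor Folr2 (0.83), and 7 of the other 9 markers were among its nearest 50 genes. Nearest to Timd4 was Clec4f (0.81), then Pira2 (0.80) and properdin, Cfp (0.80). Nearest to Cd163 were Vsig4 (0.82), Fcna (0.79) and Clec4f (0.79), and to Vsig4 they were Clec4f (0.89), Cd163 (0.82) and Pira2 (0.78). Pira2 belongs to a family of near-identical receptors between which reads may be split.

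Cd5l, Adgre1 and Csf1r had one another among their nearest 50 genes, and each also had Clec4f there. Cd5l had Sdc3 (r = 0.95), Adgre1 (0.95) and Adgre4 (0.95) nearest to it, Adgre1 had Cd5l, Sdc3 (0.95) and Adgre4 (0.94), and Csf1r had Adgre4 (0.91), Cd5l (0.90) and the sialic acid receptor Siglec1 (0.89). Marco was nearest to the complement genes C1qa (0.94), C1qc (0.93) and Cfp (0.88), which macrophages make. Clec1b had none of the other markers among its nearest 50 genes, and was nearest to Mertk (0.75), a receptor for dying cells, Was (0.75) and Cux2 (0.74).

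C6 stood farthest from the other markers. Nearest to it were C8b (r = 0.91), a complement gene of hepatocytes, and the major urinary protein genes Mup7 (0.89) and Mup14 (0.87), whose near-identical copies can share reads. None of the other markers was among its nearest 50 genes, and the nearest of them, Cd163, was in place 3824 with r = 0.17. By this measure C6 in whole liver did not follow its label as a Kupffer cell marker. Leaving it out, 5 of 9 markers were called higher in STAM at 4 weeks, where 6.52% of all genes were. In MCD, C6 was the only marker called lower, so leaving it out leaves 0 of 9, where 20.1% of all genes were.

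**Figure D4:**
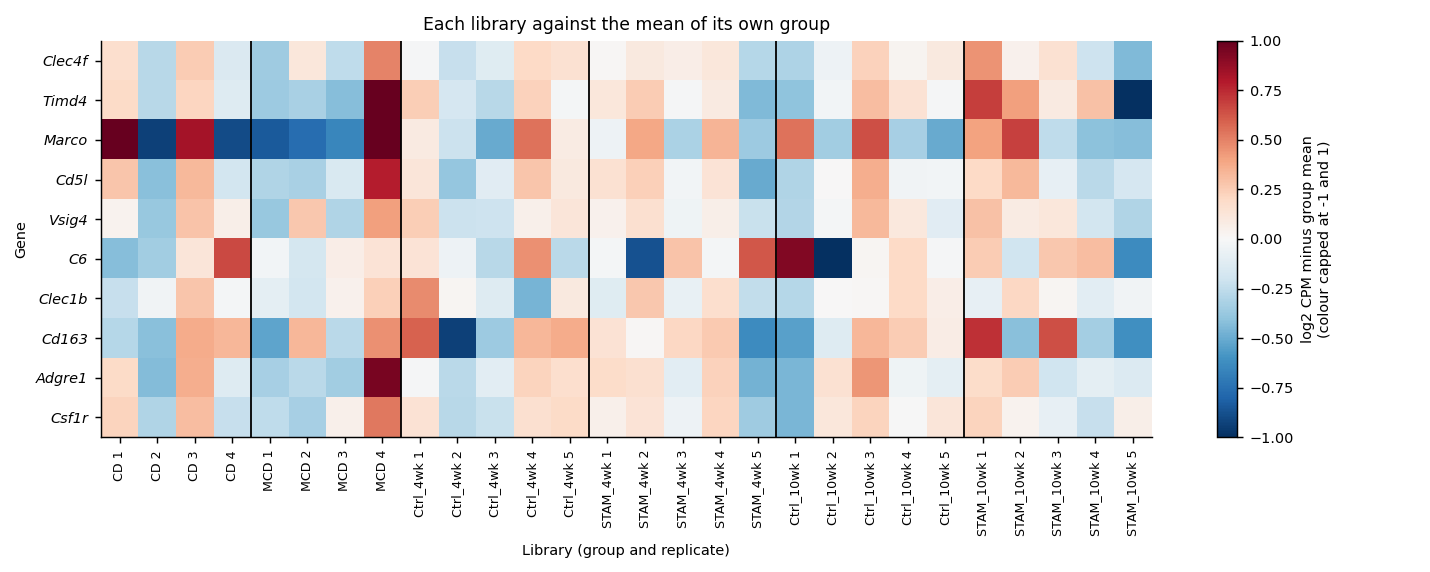
Log2 CPM of each gene (rows) in each of 28 libraries (columns) minus the mean of the library's own group, red above and blue below, with the colour capped at -1 and 1. MCD replicate 4 is high and STAM_4wk replicate 5 low in nearly all rows other than C6, whose colours differ from those of the rows around it.

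Other core genes of Kupffer cells moved in both directions. Of 15 such genes outside the 10, 4 were called higher and 2 lower in MCD, 3 and 0 in STAM at 4 weeks, and 4 and 3 in STAM at 10 weeks, with medians of 0.13, -0.01 and 0.07 against 0.07, 0.01 and 0.05 over all genes. Over all genes tested, 22.6%, 6.52% and 25.3% were called higher in these comparisons, and 20.1%, 3.27% and 22.5% lower. The same shares apply to the lists below. At 10 weeks the genes called lower were the chemokine Cxcl13 at -1.93, the prostaglandin-degrading enzyme Hpgd at -0.94 and Fcna at -0.72. Hpgd also fell in MCD, by 0.87, together with Paqr9, by 1.06. At 4 weeks Folr2 rose by 0.57 and the interleukin inhibitor Il18bp by 0.54. The kinase gene Dmpk was called higher in all 3 comparisons, by 0.68, 0.38 and 0.44.

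Among 12 transcription regulators of Kupffer cells, 7 were called higher in MCD, 2 in STAM at 4 weeks and 5 in STAM at 10 weeks. The shares over all genes were 22.6%, 6.52% and 25.3%. Called lower were 0, 0 and 2 of the 12, against 20.1%, 3.27% and 22.5% of all genes. Runx1 and Spi1, which encodes PU.1 and is active in all myeloid cells, rose in each comparison: by 1.76 and 1.37 in MCD, by 1.17 and 0.85 at 4 weeks and by 1.35 and 1.02 at 10 weeks. Id1, a target of bone morphogenetic proteins, rose by 2.20 in MCD. Id3, which Kupffer cells need for their development, fell by 1.17 at 10 weeks (adjusted p = 0.0028), and Nr1h3 by 0.37 (adjusted p = 0.00451). These are values of whole liver, and in which cells Id3 and Nr1h3 fell was not tested. With total-read scaling, and also with quantile normalization, 1 of the 12 regulators was called lower at 10 weeks instead of 2. Spic, linked to macrophages that recycle iron from red cells, rose by 1.08 in MCD and by 0.59 at 10 weeks, the second of which changed sign with quantile normalization.

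Of 8 niche signals that neighbouring cells send to Kupffer cells, 5 were called higher and 1 lower in MCD, 0 and 1 in STAM at 4 weeks, and 2 and 0 at 10 weeks. Over all genes, 22.6%, 6.52% and 25.3% were called higher, so the 2 of 8 at 10 weeks lie near that share. Of the ligands of Csf1r, Csf1 rose by 0.57 in MCD and differed by 0.03 and -0.02 in the STAM comparisons, and Il34 rose by 0.80 in MCD and by 0.65 at 10 weeks. Bmp10 rose by 1.23 in MCD, and the Notch ligand Dll4 fell by 1.08 in MCD and by 0.70 at 4 weeks. With total-read scaling 7 niche signals were called higher and 0 lower in MCD, so Dll4 was not called lower there. Quantile normalization gave 3 higher and 1 lower in MCD. Pdpn, the ligand of Clec1b, differed by 0.95, 0.46 and 1.68 and was not called. Of 8 genes for the clearance of dying cells, 3 were called higher in MCD and at 4 weeks and 6 at 10 weeks, beside the same shares over all genes. Mfge8, a bridging protein, was among them each time, at 1.29, 0.70 and 1.71, and 1 gene, the ligand Pros1, fell in MCD by 0.83.

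Markers of other macrophages were mostly called higher. Of 12 genes of recruited monocytes and lipid-associated macrophages, 11 were called higher in MCD, 9 in STAM at 4 weeks and 11 in STAM at 10 weeks, with 0 lower and medians of 2.57, 1.10 and 2.34. Their summed level was 110 to 143 CPM in CD and 406 to 558 in MCD livers, 75.5 to 107 and 162 to 238 at 4 weeks, and 49.5 to 70.9 and 174 to 531 at 10 weeks. Gpnmb and Mmp12 led in each. Of 14 genes listed as general macrophage markers, 12, 11 and 12 were called higher, with medians of 0.86, 0.60 and 0.60. Of these 14, 1 was called lower, Mrc1 at 4 weeks, by 0.37. Summed hepatocyte genes were lower in the STAM livers. The 8 genes summed to 86974 to 109203 CPM in CD and 79835 to 106282 in MCD livers, which overlapped. They summed to 145005 to 165274 CPM in controls of 4 weeks and 118598 to 134020 in STAM livers, and to 87560 to 113996 and 50568 to 67468 at 10 weeks, with no overlap at either age. Of the 8, 4 were called lower and 1 higher in MCD. With total-read scaling 3 were lower and 4 higher there, and with quantile normalization 0 were lower and 3 higher. Under quantile normalization 4 called genes, Cps1, Hnf4a, Apoa1 and Ttr, changed sign in MCD. In STAM, 2 of the 8 were called lower at 4 weeks and 6 at 10 weeks, with 0 higher. With total-read or quantile scaling 1 was lower at 4 weeks, and at 10 weeks 2 were lower with total-read scaling and 1 with quantile normalization, under which Alb and Apoa1 changed sign. The part of hepatocyte RNA in the marker rises was not tested. Csf1r and Adgre1 are made by recruited macrophages too, and the part of these cells in the rise of Csf1r, Adgre1, Cd5l or Marco was not tested. Counts of both macrophage lists with total-read or quantile scaling, added after the data were seen, lay between 9 and 14 higher.

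**Figure D5:**
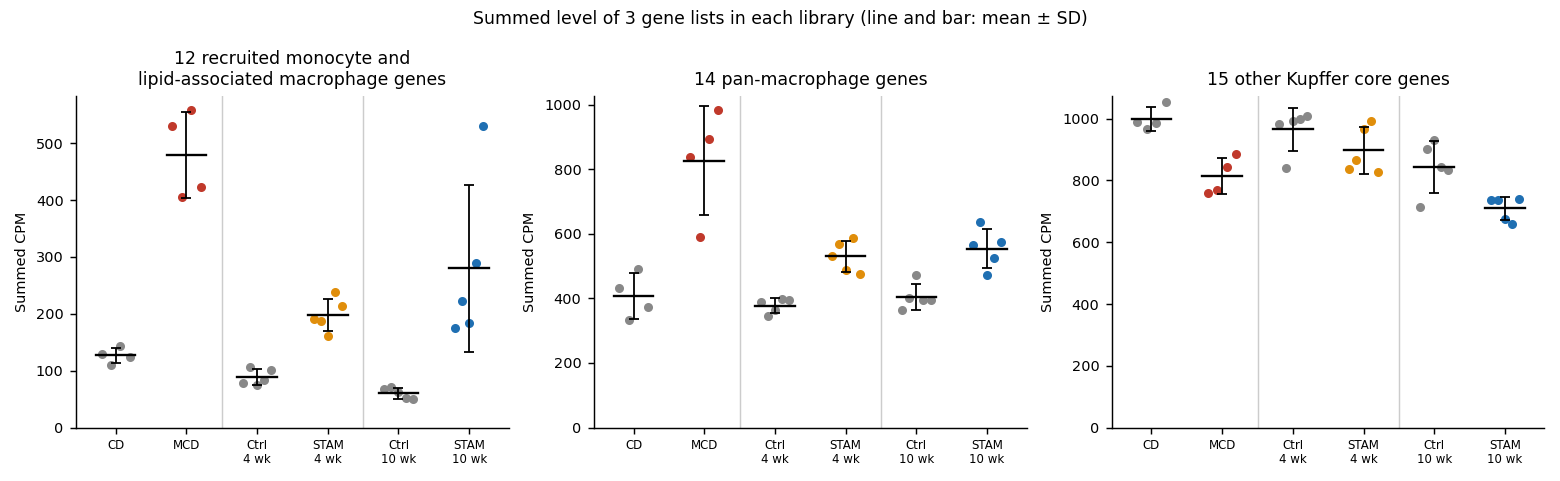
Summed CPM of 3 gene lists (vertical axes, from 0) in each library, by group; points are libraries and the line with its bar is the mean ± SD. The recruited macrophage genes were higher in every MCD or STAM liver than in every control of the same table. With the deposited scaling, the 15 other Kupffer core genes summed to 760 to 884 CPM in MCD against 968 to 1055 in CD livers. Single genes did not follow this sum, as 4 of the 15 were called higher and 2 lower in MCD. With total-read scaling 6 were called higher and 2 lower, and the sums were not repeated with that scaling.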

How the data were processed

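Poly(A) RNA of 28 mouse livers was sequenced as stranded, paired-end libraries, per the labels' protocols. The submitters' processing notes name STAR 2.4.2a and build mm10. Not given in the sources used here were counter, annotation and the authors' test. The deposited tables hold log2 CPM values, scaled by the authors within each of 3 tables with a small prior count, and the authors' log2 fold changes, p-values and adjusted p-values, per the file headers. All 28 sample columns were used. Whole reads were recovered from the deposited values (100% within 0.05 reads), giving 16.2 to 25.9 M per library. No 2 replicates were near-identical, the lowest chi-square between replicates being 11.9 per degree of freedom.

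Separate fits for each table used limma 3.58.1 in R 4.3.3 with statmod 1.5.0 and trended, robust variance moderation. Genes had to exceed the 25th percentile of mean level. Two-sided p-values were Benjamini-Hochberg adjusted over all genes tested, with a threshold of 0.05. Since the tables were scaled separately, differences between models were tested as differences between effects estimated within tables. The fits were tested on simulated counts, drawn with the same dispersion for every gene and without libraries that stood apart. That setting is simpler than these data. A count model had been planned as an alternative, and limma voom was run in its place, as the deposited unit is log2. The other alternatives were total-read scaling, quantile normalization, no filter, a filter at the 50th percentile, a prior of 2 reads, a replicate block and leaving out each library. RPKM were computed from the values and the counted length per gene in the tables.

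The 10 genes and all lists were chosen with earlier results of these data known. Besides the 10 genes, the text names at most 3 called genes per direction of each list, those with the largest differences, 6 partners by role, and the 3 genes nearest to each of the 10.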

Additional observations from a re-analysis of the deposited data

Results flagged for a closer look

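In 7 of 60 groups of 4 or 5 libraries, 1 library lay far from the rest by Dixon's gap criterion, which chance alone exceeds in about 1 in 20 groups. MCD replicate 4 accounted for 4 of them: Timd4 at 4.35 log2 CPM against 2.81 to 2.91 in the other MCD livers, Marco at 7.18 against 4.09 to 4.27, Cd5l at 8.59 against 7.48 to 7.65, and Adgre1 at 6.36 against 5.06 to 5.14. STAM replicate 5 of 4 weeks was low in Clec4f, at 7.37 against 7.66 to 7.77, and in Cd163, at 2.86 against 3.49 to 3.75. STAM replicate 5 of 10 weeks had Timd4 at 1.21, against 2.80 to 3.40 in the other 4.

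The effect of a model differed between groups in 5 tests of the difference itself (limma). The STAM effect at 10 weeks minus that at 4 weeks was -1.34 for Marco and -2.30 for C6. The effect of MCD, less that of STAM at 10 weeks, was 3.11 for Marco, -3.10 for C6 and 1.88 for Cd163.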

How the results depend on the processing

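Over 1010 values of the 10 genes under the alternatives, 937 kept their direction and side of the threshold, 24 lost a call, 18 gained one and 31 changed sign, none of them called in either setting. Clec4f in MCD went from -0.04 to 0.39 with total-read scaling and 0.24 with quantile normalization, Timd4 in MCD from -0.02 to 0.40 with total-read scaling and 0.015 with limma voom, C6 at 10 weeks from -0.17 to 0.12 with total-read scaling and 0.066 with quantile normalization, and Clec1b at 10 minus 4 weeks from -0.03 to 0.18 with total-read scaling. Leaving out 1 library gave -0.20 to 0.082 for Clec4f and -0.40 to 0.12 for Timd4 in MCD, and -0.0096 to 0.21 for Clec4f, -0.034 to 0.12 for Vsig4 and -0.45 to 0.062 for C6 at 10 weeks. In the differences between ages it gave -0.15 to 0.085 for Clec1b and -0.0092 to 0.22 for Adgre1, and between models -0.051 to 0.32 for Cd5l and -0.23 to 0.21 for Adgre1. The 3 markers called higher in MCD became 6 with total-read scaling, 5 with quantile normalization and 1 with limma voom, and 1 to 5 when 1 library was left out (1 without CD replicate 4, 5 without CD replicate 3). In STAM at 4 weeks, leaving out 1 library gave 4 to 7 markers higher and 0 to 1 lower (1 without Ctrl_4wk replicate 2), and 982 to 1821 genes called against 1500, with 982 without STAM_4wk replicate 1. For the STAM effect at 10 minus 4 weeks, total-read scaling gave 1 marker called higher, Csf1r. For the MCD minus STAM effect, 1 was higher with limma voom. The causes were not tested.

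Replicate numbers did not pair the samples: 0 of 14 same-numbered pairs had deviations correlated over 0.1 (r from -0.12 to 0.01), and 0 libraries correlated best with their own number. The fit with a replicate block called 3 markers higher and 848 genes in STAM at 4 weeks, and 1 marker higher for the MCD minus STAM effect. With total-read scaling, 84.3% of genes called in the difference between ages were higher, against 44.3%, and 62.5% in the difference between models, against 46.2%. Depth limits Marco most, at 23 reads in its lowest library.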
